A study of Mus musculus with 6 samples.

Results

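Complexes II to V of the respiratory chain are built in the inner mitochondrial membrane, and 39 of the 22770 rows of a ribosome profiling table of mouse round spermatids carried the names of their nuclear-encoded subunits. The rows were taken by gene symbol: Sdha to Sdhd for complex II, symbols that begin with Uqcr plus Cyc1 for complex III, symbols of the Cox5, Cox6 and Cox7 families for complex IV, and symbols that begin with Atp5 for complex V. This gave 4, 9, 9 and 17 genes. Rows with a pseudogene suffix were left out, as were Cox6b1, Cox6b2, Cox7b and Cox7b2. All 39 symbols matched a gene of the RefSeq table of GRCm38, 38 of them as protein coding. The exception, Cox6c2, is annotated there as a pseudogene.

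Complex II, succinate dehydrogenase, oxidises succinate in the citric acid cycle and passes the electrons to ubiquinone. Complex III passes electrons from ubiquinol to cytochrome c, complex IV passes them from cytochrome c to oxygen, and complexes III and IV pump protons while they do so. Complex V, the ATP synthase, lets the protons flow back and makes ATP. In male germ cells respiration serves meiosis and spermatid differentiation, and the mitochondria later form the sheath of the sperm midpiece. EIF5A is a translation factor that carries the modified amino acid hypusine and helps ribosomes at difficult stretches such as proline runs. In mouse macrophages the hypusinated form is known to favour the synthesis of a subset of mitochondrial enzymes.

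Ribosome-protected RNA fragments were sequenced from testis round spermatids of 3 Eif5a SKO and 3 wild-type samples. The labels do not say what SKO stands for, and the table's columns call this genotype cKO. The sources used here do not give strain, age or the promoter of any Cre driver. The series' design text, written for a chromatin assay, describes cells sorted from 3 mice of each group, and nothing states whether the profiling libraries came from separate animals, so the p-values reflect a spread between samples that may be technical. The unit, FPKM, divides the fragments of a gene by transcript length and library size. Comparisons of density between genes are approximate, because transcript length is not coding length and the treatment of reads that map to several places is not stated. Ribosome footprint density of this kind reflects the amount of mRNA as well as its translation, and matched mRNA was not analysed here.

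The libraries differed in makeup. Of all FPKM, the protein-coding part was 18.3%, 33.1% and 29.8% in SKO libraries and 26.1%, 22.5% and 28.5% in wild-type libraries, and the rest lay in other rows. SKO replicate 1 had the lowest share, and it also had the lowest value of the SKO libraries for nearly all subunit genes. Absolute depth is unknown because no counts could be recovered, so no counting interval is given. Two-sided tests were made with limma, a linear model with a shared estimate of the spread, on log2(FPKM + 1) of the 15578 rows that averaged 1 FPKM or more, with Benjamini-Hochberg adjustment over all of them and a threshold of 0.05. Adding 1 understates the change of genes with low values. Each fit was made on the deposited values and, as an alternative, after every library had been scaled to the same sum over protein-coding rows, and the second scale is named wherever it is used.

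Eif5a itself had 1.84, 1.93 and 2.99 FPKM in SKO libraries, against 34.2, 48.8 and 61.9 FPKM in wild-type libraries. The groups did not overlap, and SKO averaged 4.67% of wild type (log2 fold change -3.90, SE 0.37, limma adjusted p = 0.00641). An exact permutation test gave p = 0.1, the smallest that 20 assignments allow. Of the round spermatid markers 11 of 11 were tested, and their summed FPKM ran from 1116 to 2364 in SKO and from 925 to 1697 in wild type. Levels differed widely within the list, from a mean of 516 FPKM for Acrv1 to 2.46 and 1.34 FPKM for Tssk1 and Tssk2. On the deposited values 0 of the 11 passed the test. After scaling to equal protein-coding sums 2 of the 11 rose, Catsper3 (log2 fold change 0.85, limma adjusted p = 0.0352) and Spaca1 (0.85, adjusted p = 0.0387). None was called lower, and 2.02% of all tested rows were called higher. The list was split on that scale: SKO lay above every wild-type library in 5 genes and below in 2. Those below were Acr and Lrrc34 (log2 fold changes -0.19 and -0.49, not called). Of all tested rows 11.3% lay above and 11.8% below on that scale.

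Markers of somatic testis cells differed in level between the genotypes, and 1 of those tested passed on the deposited values. After scaling to equal protein-coding sums 2 of the 5 tested Sertoli cell markers rose, Clu and Ctsl (limma adjusted p = 0.0231 and 0.0348). Amhr2, Inha and Vim did not pass. Of the 10 tested markers of peritubular, endothelial, macrophage and blood cells, Acta2 and Dcn rose on that scale (limma adjusted p = 0.0279 and 0.0386). The globin gene Hba-a1 fell (0.0479), and 0 of the 6 tested Leydig cell markers passed. Of all tested rows 2.02% were called higher and 1.3% lower on that scale. The 6 of 7 Leydig cell markers that could be matched summed to 52.3 to 107 FPKM in SKO libraries and to 12.5 to 17.3 FPKM in wild-type libraries. The 5 of 11 Sertoli cell markers that could be matched summed to 63.3 to 87.7 FPKM in SKO and to 16.8 to 27.6 FPKM in wild type, and the defining markers Sox9, Wt1, Amh, Gata4, Cldn11 and Rhox5 were not analysed here. The 10 of 13 matched markers of peritubular, endothelial, macrophage and blood cells summed to 49.1 to 70.7 FPKM in SKO and to 57.2 to 118 FPKM in wild type. These ranges overlapped, and the list was split: SKO lay above every wild-type library in 4 of the 10 genes and below in 4. Of all tested rows 10.9% lay above and 4.78% below in this way. Among those above, Dcn, a matrix proteoglycan of stromal cells, rose (8.96 ± 1.33 FPKM in SKO and 1.11 ± 0.289 FPKM in wild type, SD, n = 3 each, limma adjusted p = 0.0470). Acta2, Cnn1 and Myh11 did not pass on the deposited values. The 4 below were the globins of red blood cells, with means of 5.16 to 9.38 FPKM in SKO and 13.3 to 27.5 FPKM in wild type. None of them passed on the deposited values (smallest limma adjusted p = 0.294). No matched marker was at 0 in all libraries. The part of these cells in the subunit results was not tested.

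The subunit genes were among the denser rows. Their median footprint density was 71.1 FPKM over the 6 libraries, against 4.25 FPKM for all tested protein-coding rows, and 36 of the 38 tested subunit genes lay above the latter value. The 90th percentile of protein-coding rows was 31.7 FPKM, and 26 of 38 subunit genes exceeded it. The densest were Cox6c2, Cox7a2 and Atp5b. Cox7a1, the COX7A form of heart and skeletal muscle, was the sparsest at 0.637, 1.87 and 0 FPKM in SKO libraries and 0, 1.24 and 0 FPKM in wild-type libraries, which left it out of the tests.

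**Figure D1:**
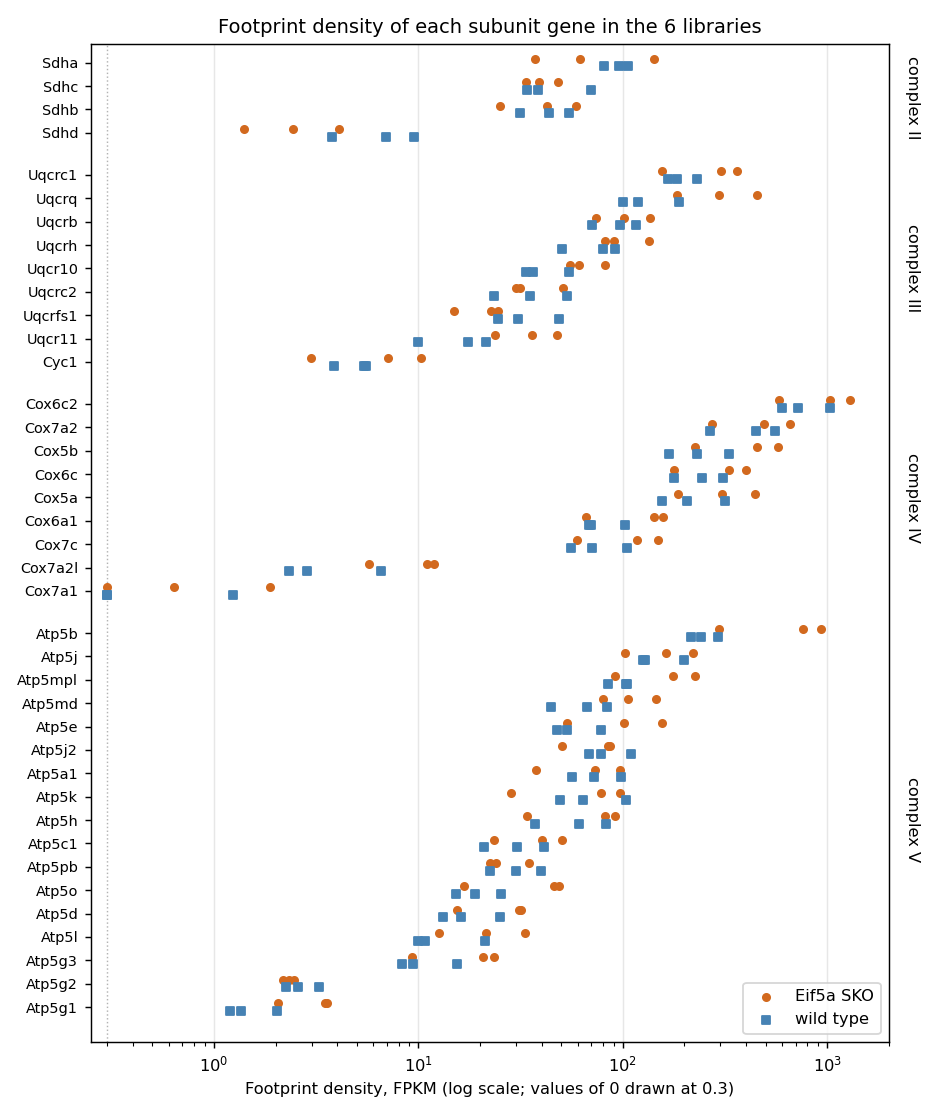
Footprint density of the 39 subunit genes in FPKM on a log scale, with genes ordered within each complex by mean; circles are the 3 Eif5a SKO libraries and squares the 3 wild-type libraries, and values of 0 are drawn at 0.3. Sdhd lies far below the other complex II genes, Cyc1 below the other complex III genes, and Atp5b stands to the right of its complex in SKO.

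None of the 38 tested subunit genes passed the test on the deposited values, against 0.128% of all tested rows (0.109% higher and 0.0193% lower in SKO). The smallest adjusted p was 0.379, for Cox7a2l. At an unadjusted p under 0.05 there were 5 subunit genes, or 13.2%, against 11% of all tested rows: Cox7a2l, Uqcr11, Sdhd, Atp5b and Uqcrq. Their log2 fold changes were positive except for Sdhd. The SKO values lay above every wild-type value in 4 genes (Atp5b, Atp5g1, Uqcr10 and Uqcr11), with 10.9% of all tested rows above in this way, and below in 1 gene (Uqcrfs1), with 4.78% of all rows below. The shares of subunit genes were thus near those of all rows.

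The median log2 fold change of the 38 genes was 0.35, with 0.13 for all tested rows and 0.21 for the 1044 protein-coding rows whose mean lay between the quartiles of the subunit genes (27.9 and 123 FPKM). It stood 0.23 above the median of all rows, with 25 genes above that median and 13 below it. By complex the medians differed in sign: -0.31 for complex II, 0.42 for complex III, 0.44 for complex IV and 0.48 for complex V. Measured against the median of all rows, each complex kept its sign when 1 library was left out, but the sizes moved. Relative to all rows, complex II stood at -0.43 and ran from -0.69 without SKO replicate 2 to -0.26 without SKO replicate 1, and complex III stood at 0.30 and ran from 0.14 without SKO replicate 2 to 0.47 without SKO replicate 1, with 0.18 without SKO replicate 3. Complex IV stood at 0.31 and ran from 0.11 without SKO replicate 2 to 0.56 without SKO replicate 1, with 0.16 and 0.48 without wild-type replicates 1 and 3. Complex V stood at 0.36 and ran from 0.17 without wild-type replicate 2 to 0.49 without wild-type replicate 3, with 0.20 without SKO replicate 3. All 4 complex II genes lay below the median of all rows and all 8 tested complex IV genes lay above it, Cox7a2 by only 0.0073. The 8 include the annotated pseudogene Cox6c2. Of the 4 complex IV rows that the choice of symbols left out, Cox7b2 and Cox6b2 lay below that median (-1.02 and -0.20) and Cox6b1 and Cox7b above it (0.27 and 0.38). The 35 tested Nduf genes of complex I, the NADH dehydrogenase, had a median of 0.41, and 0 of them passed.

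After scaling to equal protein-coding sums 3 of the 38 tested genes passed the test, all of complex III: Uqcrq and Uqcr11 rose and Uqcrfs1 fell. Cox7b2 of complex IV, which the choice of symbols left out, also fell on this scale (log2 fold change -1.13, limma adjusted p = 0.0116). The 3 genes made up 7.89% of the 38, against 3.32% of all tested rows (2.02% higher and 1.3% lower) and 12.7% of the protein-coding rows of similar density. Groups did not overlap on this scale in 16 subunit genes, 9 with SKO above and 7 with SKO below. That is 42.1% of them, against 23.1% of all rows (11.3% above and 11.8% below) and 47.6% of the rows of similar density. All 3 calls were lost when any 1 library was left out, SKO or wild type: the adjusted p then ran from 0.0536 to 0.120 for Uqcrq, from 0.0870 to 0.147 for Uqcr11 and from 0.0699 to 0.121 for Uqcrfs1. Their log2 fold changes stayed near those with all libraries, from 0.81 to 1.00 for Uqcrq, from 0.76 to 0.97 for Uqcr11 and from -0.96 to -0.83 for Uqcrfs1.

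**Figure D2:**
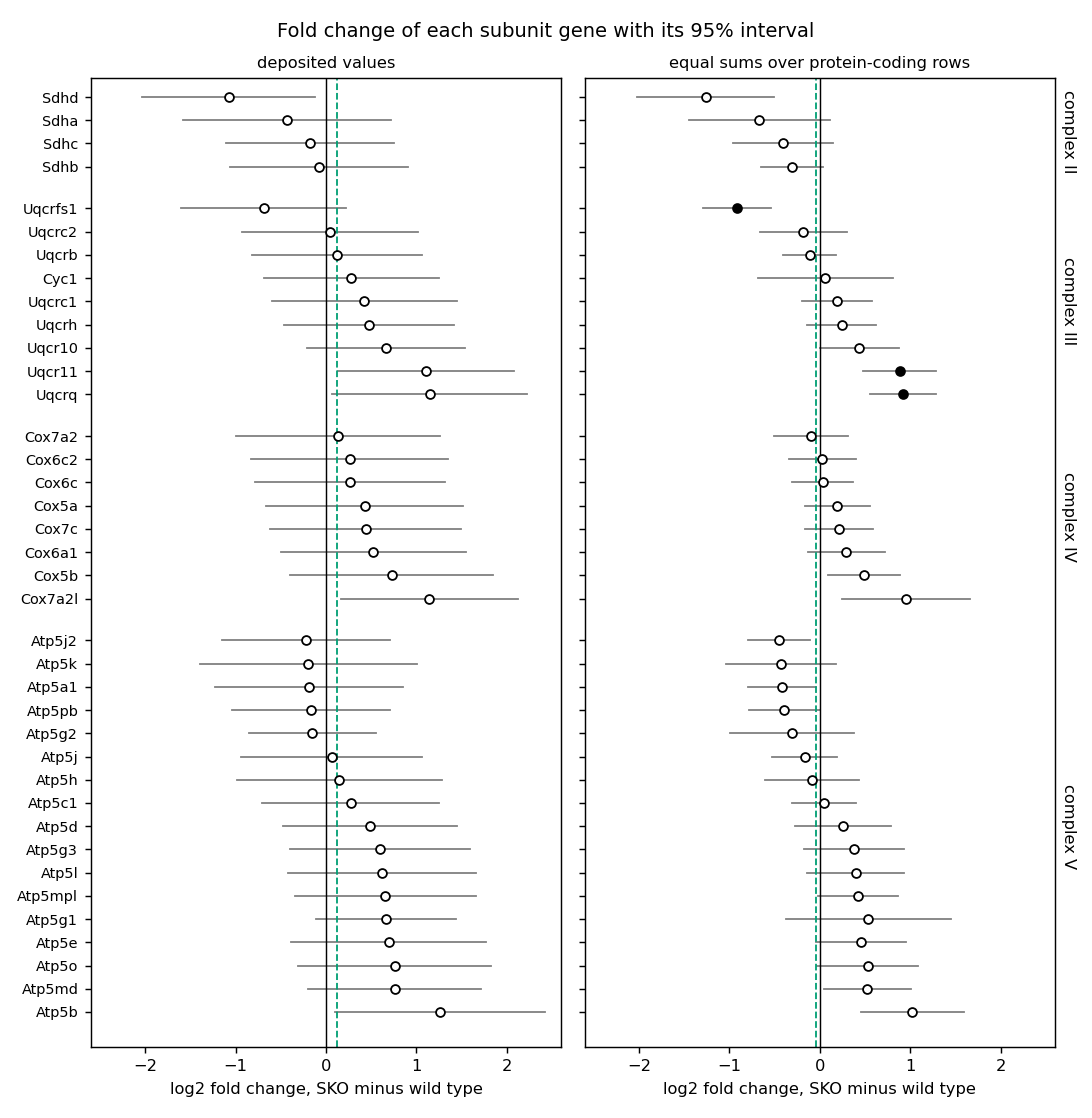
Log2 fold change (SKO minus wild type) of the 38 tested subunit genes with 95% intervals from limma, on deposited values at left and after scaling to equal protein-coding sums at right; filled points have an adjusted p under 0.05, the dashed line is the median of all tested rows and the solid line is 0. No gene passes at left, and Uqcrq, Uqcr11 and Uqcrfs1 pass at right, where most intervals are narrower.

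Complex II had the lowest SKO densities relative to wild type of the 4 complexes. Its genes took 0.0695%, 0.0911% and 0.0762% of the protein-coding FPKM in SKO libraries, against 0.135%, 0.103% and 0.104% in wild-type libraries. The ranges of these shares did not overlap, and the same held without Sdha (0.0429%, 0.0376% and 0.0460% in SKO, 0.0535%, 0.0539% and 0.0609% in wild type). The deposited sums did overlap, at 97.5, 243 and 156 FPKM in SKO and 175, 170 and 230 FPKM in wild type. As a share of the FPKM of all 39 genes, complex II made up 3.07%, 3.24% and 2.70% in SKO and 5.84%, 4.54% and 4.51% in wild type. In samples of many cells, fewer cells of a type and less RNA per cell cannot be told apart.

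Sdhd encodes the small membrane anchor that, with the Sdhc product, holds the enzyme and binds ubiquinone. It lies on chromosome 9 from 50596340 to 50603849 (GRCm38, gene 66925). Its densities were 1.41, 2.45 and 4.10 FPKM in SKO libraries, against 3.80, 6.93 and 9.47 FPKM in wild-type libraries. SKO replicate 3 lay just above the lowest wild-type library, and the other SKO libraries lay below all wild-type ones. The log2 fold change was -1.08 (SE 0.43, limma adjusted p = 0.397), and it was -1.26 (adjusted p = 0.0936) after scaling to equal protein-coding sums, where the groups no longer overlapped. Set against the median gene of complex II in the same library, Sdhd stood 3.64, 3.83 and 3.18 log2 units lower in SKO and 2.81, 2.40 and 2.59 lower in wild type.

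The remaining complex II genes were less separated. Sdha, on chromosome 13 from 74322255 to 74350240, encodes the flavoprotein that oxidises succinate. It had 37.4, 143 and 61.9 FPKM in SKO libraries, against 106, 81.3 and 96.1 FPKM in wild-type libraries. SKO replicate 2 was the highest of the 6 libraries and the other SKO libraries the lowest (log2 fold change -0.43, SE 0.51, limma adjusted p = 0.808). Sdhb, the iron-sulfur subunit, had 25.0, 59.2 and 42.4 FPKM in SKO and 31.4, 43.4 and 54.7 FPKM in wild type. Sdhc, the other anchor, had 33.7, 38.8 and 48.0 FPKM in SKO and 33.9, 38.6 and 69.9 FPKM in wild type. Their log2 fold changes were -0.08 and -0.18, and the groups overlapped in both. With 1 library left out, the log2 fold changes of Sdha and Sdhb reached 0.0036 and 0.25, both without SKO replicate 1. That of Sdhc reached 0.13 without wild-type replicate 3.

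The promoters of Sdha and Sdhd are shown because complex II stood apart from the other complexes and because they carry the letters of known regulators of respiratory genes. Of the 39 genes, 30 matched a RefSeq promoter window (GRCm38.p6) of 250 bases before to 50 bases after the start. Both strands were searched for GCGCA, any base and GCGC in a row, the core bound by NRF1, and for CCGGAAG, the core bound by GABPA, both activators of nuclear genes for respiration. The 100 bases before each start are printed on the gene's minus strand, with matches in capitals. The windows are chr13:74350241-74350340 and chr9:50603850-50603949.
Sdha: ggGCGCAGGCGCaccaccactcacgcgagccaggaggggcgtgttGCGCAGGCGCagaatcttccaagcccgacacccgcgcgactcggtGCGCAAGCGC
Sdhd: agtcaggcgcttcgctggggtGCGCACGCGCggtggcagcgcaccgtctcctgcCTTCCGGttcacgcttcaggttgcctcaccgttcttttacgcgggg
Sdha held 3 matches to the NRF1 letters, and Sdhd held 1 to the NRF1 letters and 1 to the GABPA letters on the opposite strand. NRF1 letters occurred in 10 of the 30 subunit genes (33.3%), against 5.19% of all 27025 genes with a window. GABPA letters occurred in 11 (36.7%), against 9.93% of all genes. The letters of YY1, AANATGGC, occurred in 4 (13.3%), against 6.96%. A match describes the letters only.

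Complex III held the 3 genes of this set that passed on the protein-coding scale. Its 9 genes together took 0.445%, 0.488% and 0.461% of the protein-coding FPKM in SKO libraries, against 0.377%, 0.363% and 0.368% in wild-type libraries, with no overlap. The deposited sums overlapped, at 624, 1301 and 947 FPKM in SKO and 487, 599 and 811 FPKM in wild type. Uqcrq and Uqcrc1 supplied much of the sum. Without Uqcrq the shares were 0.314%, 0.318% and 0.317% in SKO and 0.299%, 0.291% and 0.282% in wild type, still without overlap.

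Uqcrq, on chromosome 11 from 53427922 to 53430831 (gene 22272), encodes a small subunit that contacts the cytochrome b part of the complex. It had 184, 453 and 296 FPKM in SKO libraries, against 100, 118 and 189 FPKM in wild-type libraries. SKO replicate 1 lay just under wild-type replicate 3, and all other SKO values lay above all wild-type ones. The log2 fold change was 1.15 (SE 0.48, limma adjusted p = 0.424). Scaled to equal protein-coding sums, Uqcrq had 239, 309 and 262 FPKM in SKO and 141, 130 and 156 FPKM in wild type. It rose on that scale by 0.92 log2 units (SE 0.15, adjusted p = 0.0309), and the groups did not overlap.

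Uqcr11, on chromosome 10 from 80402997 to 80406821 (gene 66594), encodes a small peripheral subunit. It had 23.7, 47.7 and 36.1 FPKM in SKO libraries, against 9.89, 17.4 and 21.4 FPKM in wild-type libraries. The groups did not overlap (log2 fold change 1.11, SE 0.43, limma adjusted p = 0.394). With equal protein-coding sums the SKO libraries lay close together at 30.8, 32.5 and 31.9 FPKM, against 13.9, 19.1 and 17.6 FPKM in wild type. Uqcr11 rose on that scale (log2 fold change 0.88, SE 0.17, adjusted p = 0.0441).

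Uqcrfs1, on chromosome 13 from 30540312 to 30545316 (gene 66694), encodes the Rieske iron-sulfur protein that takes electrons from ubiquinol, one of the last subunits added to the complex. It had 15.0, 24.48 and 22.6 FPKM in SKO libraries, against 24.54, 30.7 and 48.6 FPKM in wild-type libraries. All SKO values lay below all wild-type values, the closest pair by a narrow gap (log2 fold change -0.69, SE 0.41, limma adjusted p = 0.579). Scaled to equal protein-coding sums it had 19.5, 16.7 and 20.0 FPKM in SKO and 34.5, 33.8 and 40.1 FPKM in wild type. It fell on that scale (log2 fold change -0.91, SE 0.16, adjusted p = 0.0339). Relative to the median gene of complex III in the same library, Uqcrfs1 stood 1.81, 1.70 and 1.39 log2 units lower in SKO and 0.55, 0.19 and 0.16 lower in wild type. By the same measure Uqcrc2 and Uqcrb also lay lower in every SKO library than in any wild-type library, and the groups overlapped for Uqcrq and Uqcr11. The median gene was Uqcr10 in every library but wild-type replicate 2, and Uqcr10 itself lay higher in every SKO library. Setting genes against it thus places them lower in SKO, Uqcrfs1 included. In FPKM, Uqcrc2 and Uqcrb overlapped between the groups on the deposited and the protein-coding scale. Over all 39 genes this measure left most with overlap and the others on both sides, and no share over all rows was computed for it.

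The promoters of Uqcr11 and Uqcrfs1, which moved in opposite directions on the protein-coding scale, are printed in the same way. The windows are chr10:80406822-80406921 and chr13:30545317-30545416, and both genes lie on the minus strand. In Uqcrfs1 the capitals mark TGACGTCA, the cAMP response element that CREM, an activator of spermatid genes, can bind. These letters were added to the search after the Uqcrfs1 sequence had been read.
Uqcr11: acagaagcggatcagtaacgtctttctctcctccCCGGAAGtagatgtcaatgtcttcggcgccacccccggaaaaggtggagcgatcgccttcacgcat
Uqcrfs1: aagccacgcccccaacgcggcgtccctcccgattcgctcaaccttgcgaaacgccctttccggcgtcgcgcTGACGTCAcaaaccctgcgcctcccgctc
Uqcr11 held 1 match to the GABPA letters. Uqcrfs1 was the 1 gene of the 30 with the response element (3.33%), against 2.03% of all genes.

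Other complex III genes overlapped between the groups, apart from Uqcr10. That gene encodes a small subunit next to cytochrome c1, and it had 55.0, 81.9 and 60.7 FPKM in SKO libraries, against 36.4, 33.6 and 54.3 FPKM in wild-type libraries (log2 fold change 0.67, limma adjusted p = 0.576). Uqcrc1, a core protein of the matrix side, had 156, 362 and 302 FPKM in SKO and 166, 183 and 232 FPKM in wild type. Uqcrc2, the other core protein, had 31.3, 51.2 and 29.96 FPKM in SKO and 23.3, 35.1 and 53.1 FPKM in wild type. Their log2 fold changes were 0.42 and 0.04. The core proteins occur in equal number in the complex, but their footprint densities per length differed several-fold in both genotypes.

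Uqcrb, which contacts the ubiquinone site, had 74.2, 136 and 102 FPKM in SKO and 70.7, 96.9 and 116 FPKM in wild type. Uqcrh, the hinge protein that helps cytochrome c1 bind cytochrome c, had 81.9, 135 and 90.9 FPKM in SKO and 50.3, 79.9 and 91.5 FPKM in wild type. Cyc1, which encodes cytochrome c1, was the sparsest gene of the complex at 6.81 ± 3.66 FPKM in SKO and 4.94 ± 0.917 FPKM in wild type (SD, n = 3 each). These groups overlapped, with log2 fold changes of 0.12, 0.48 and 0.28.

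Complex IV was the densest of the 4, and its shares overlapped between the genotypes. Its 8 protein-coding genes took 0.709%, 0.894% and 0.900% of the protein-coding FPKM in SKO libraries, against 0.693%, 0.771% and 0.781% in wild-type libraries. SKO replicate 1 lay within the wild-type range and the other SKO libraries above it. The sum with Cox6c2, which as an annotated pseudogene is not in the protein-coding total, equalled 1.12%, 1.38% and 1.40% of that total in SKO and 1.16%, 1.20% and 1.25% in wild type. On the deposited values the groups overlapped in all 9 genes.

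**Figure D3:**
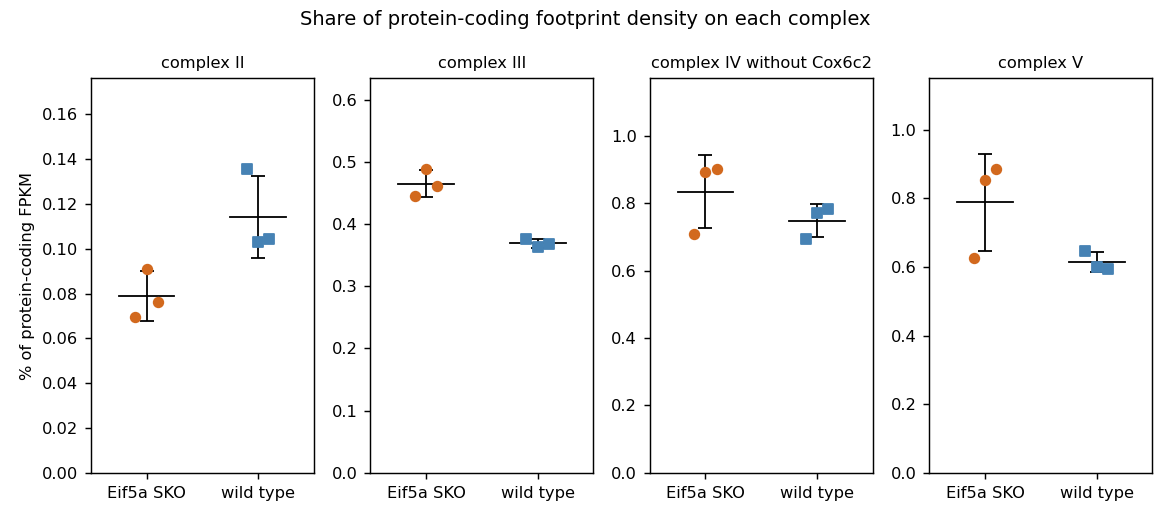
Summed FPKM of the subunit genes of each complex as a percentage of the FPKM of all protein-coding rows, with the annotated pseudogene Cox6c2 left out of complex IV; points are libraries, with Eif5a SKO at left and wild type at right, and bars show the mean and SD of the 3 libraries. Every SKO library lies below every wild-type library for complex II and above for complex III, and the groups overlap for complexes IV and V.

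Cox5b and Cox5a encode nuclear subunits on the matrix side of cytochrome c oxidase. Cox5b had 225, 572 and 451 FPKM in SKO libraries, against 168, 230 and 330 FPKM in wild-type libraries (log2 fold change 0.73, SE 0.50, limma adjusted p = 0.629). Cox5a averaged 311 ± 128 FPKM in SKO and 226 ± 82.0 FPKM in wild type. On the protein-coding scale the groups did not overlap for Cox5b. A pseudogene row, Cox5b-ps, averaged 171 FPKM in SKO and 124 FPKM in wild type, so reads of such near copies may have been split between rows. For Cox7c, at 109 ± 44.9 FPKM in SKO and 77.1 ± 25.3 FPKM in wild type, the pseudogene row Cox7c-ps1 was denser than the gene, at 372 FPKM in SKO and 180 FPKM in wild type.

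Cox6c encodes a small membrane subunit. It had 179, 398 and 329 FPKM in SKO libraries and 179, 244 and 309 FPKM in wild-type libraries. Cox6c2, on chromosome 12 from 56373458 to 56373872 (gene 102640946), had 578, 1290 and 1032 FPKM in SKO and 601, 716 and 1033 FPKM in wild type. The values of Cox6c2 made up 76.4%, 76.4% and 75.8% of the pair in SKO and 77.1%, 74.6% and 77.0% in wild type. This share varied little over the libraries, and reads of the pair may not have been told apart. Cox6a1, another small nuclear subunit, averaged 122 ± 48.7 FPKM in SKO and 80.3 ± 19.4 FPKM in wild type.

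In the COX7A family Cox7a2, the widely expressed form, dominated. It had 273, 653 and 490 FPKM in SKO libraries and 267, 447 and 553 FPKM in wild-type libraries (log2 fold change 0.13, limma adjusted p = 0.956). Cox7a2l, on chromosome 17 from 83501917 to 83514333 (gene 20463), encodes a related protein that joins complex III to complex IV in supercomplexes. Cox7a2l had 5.73, 11.0 and 11.9 FPKM in SKO libraries, against 2.84, 2.33 and 6.58 FPKM in wild-type libraries. SKO replicate 1 lay below wild-type replicate 3, and the other SKO libraries lay above all wild-type ones (log2 fold change 1.14, SE 0.44, limma adjusted p = 0.379). As a share of the family, Cox7a2l took 2.05%, 1.66% and 2.37% in SKO and 1.05%, 0.517% and 1.18% in wild type, without overlap.

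Complex V showed its largest difference in Atp5b, the gene of the catalytic beta subunit. The 17 genes took 0.627%, 0.854% and 0.884% of the protein-coding FPKM in SKO libraries, against 0.647%, 0.600% and 0.593% in wild-type libraries. SKO replicate 1 lay within the wild-type range and the other SKO libraries above it. Without Atp5b the shares were 0.416%, 0.504% and 0.513% in SKO and 0.480%, 0.454% and 0.460% in wild type. Of the complex V sum, Atp5b made up 33.7%, 41.0% and 42.0% in SKO and 25.9%, 24.4% and 22.3% in wild type, without overlap.

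Atp5b lies on chromosome 10 from 128083307 to 128090388 (gene 11947). It had 296, 934 and 762 FPKM in SKO libraries, against 216, 242 and 292 FPKM in wild-type libraries. All SKO values lay above all wild-type values, SKO replicate 1 by little (log2 fold change 1.26, SE 0.52, limma adjusted p = 0.418). Relative to the median gene of complex V in the same library, Atp5b stood 3.34, 3.41 and 3.37 log2 units higher in SKO and 2.52, 2.33 and 2.11 higher in wild type. With equal protein-coding sums it had 384, 636 and 675 FPKM in SKO and 304, 266 and 241 FPKM in wild type (log2 fold change 1.02, adjusted p = 0.0760). It passed on that scale only without SKO replicate 1 (1.28, adjusted p = 0.0379), and over the libraries left out in turn its adjusted p ran from 0.0379 to 0.218.

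Atp5a1 encodes the alpha subunit, which alternates with beta in the catalytic head in equal number. It had 37.7, 97.1 and 72.8 FPKM in SKO libraries, against 56.3, 72.3 and 97.4 FPKM in wild-type libraries (log2 fold change -0.19, limma adjusted p = 0.924). The log2 ratio of Atp5b to Atp5a1 was 2.94, 3.25 and 3.37 in SKO and 1.92, 1.73 and 1.57 in wild type, a pair chosen after the values were seen and given with no test. The gamma subunit gene Atp5c1, the rotor shaft, averaged 37.9 ± 13.5 FPKM in SKO and 30.9 ± 10.1 FPKM in wild type. The delta and epsilon genes Atp5d and Atp5e had log2 fold changes of 0.48 and 0.69, with overlap in both.

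**Figure D4:**
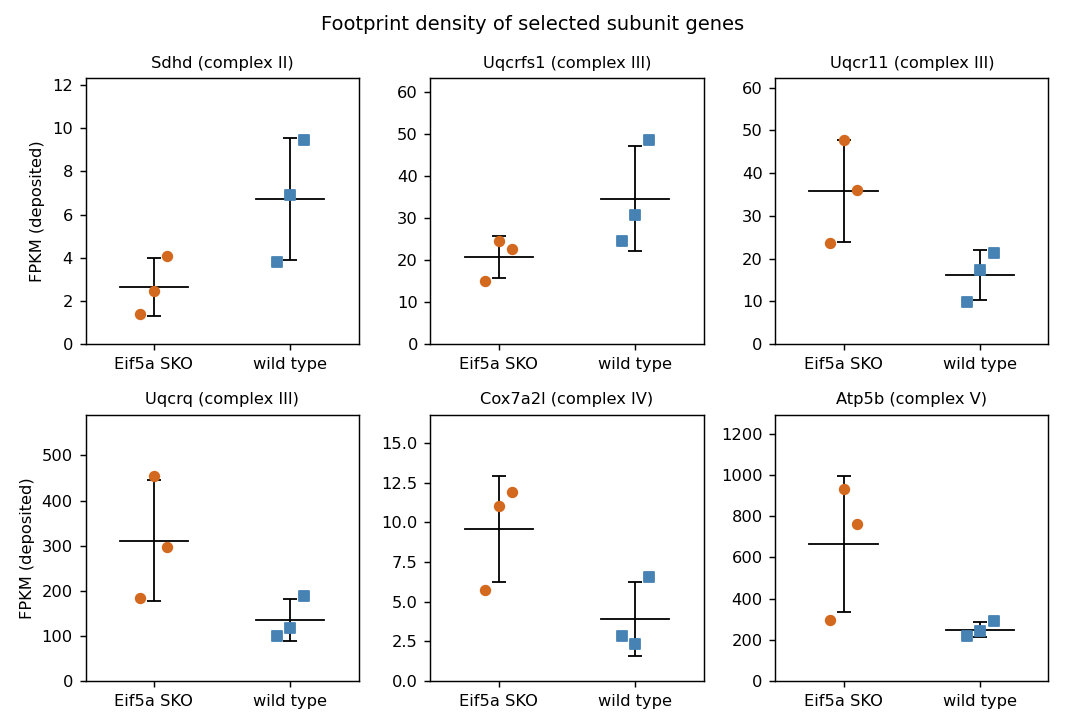
Deposited FPKM of 6 subunit genes in each library, with Eif5a SKO at left and wild type at right; points are libraries, and bars show the mean and SD of the 3 libraries. Atp5b and Uqcr11 have all SKO values above all wild-type values and Uqcrfs1 has all below, and the ranges of Sdhd, Uqcrq and Cox7a2l overlap at 1 library.

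The c ring of the ATP synthase, which turns as protons pass, is made of a protein that 3 genes encode with different import signals. Atp5g3 was the main one, at 9.34, 23.5 and 20.8 FPKM in SKO libraries and 9.41, 8.30 and 15.5 FPKM in wild-type libraries. Atp5g1 had 3.57, 2.05 and 3.51 FPKM in SKO, against 1.35, 1.20 and 2.04 FPKM in wild type. The Atp5g1 groups did not overlap, by a narrow gap (log2 fold change 0.66, SE 0.34, limma adjusted p = 0.522). With equal protein-coding sums they did overlap, at 4.63, 1.39 and 3.11 FPKM in SKO and 1.90, 1.32 and 1.68 FPKM in wild type. Atp5g2 had 2.17, 2.32 and 2.46 FPKM in SKO and 2.26, 2.58 and 3.27 FPKM in wild type. Atp5g2 took 14.4%, 8.35% and 9.22% of the c-ring sum in SKO and 17.3%, 21.4% and 15.8% in wild type, without overlap, and the shares of Atp5g1 and Atp5g3 overlapped.

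The peripheral stalk, which holds the head still, is encoded by Atp5pb, Atp5h, Atp5j and Atp5o. Atp5j had 102, 220 and 163 FPKM in SKO libraries and 128, 125 and 199 FPKM in wild-type libraries. Atp5o averaged 37.1 ± 17.7 FPKM in SKO and 19.8 ± 5.02 FPKM in wild type, and Atp5pb averaged 27.0 ± 6.84 FPKM in SKO and 30.7 ± 8.77 FPKM in wild type (SD, n = 3 each). Their log2 fold changes were 0.06, 0.76 and -0.17, and that of Atp5h was 0.15. The stalk genes thus lay on both sides of the all-row median of 0.13.

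Small membrane subunits of complex V, several of which join the enzyme into dimers, also differed among themselves. Atp5md had 79.7, 145 and 106 FPKM in SKO libraries, against 44.3, 83.5 and 67.0 FPKM in wild-type libraries (log2 fold change 0.76, SE 0.43, limma adjusted p = 0.557). Atp5mpl had 91.8, 225 and 176 FPKM in SKO and 84.5, 104 and 104 FPKM in wild type (0.66, adjusted p = 0.628). Each had 1 SKO library within the wild-type range. Atp5j2 had 50.3, 86.8 and 84.2 FPKM in SKO and 68.3, 78.1 and 109 FPKM in wild type, and Atp5k had 28.4, 97.2 and 77.8 FPKM in SKO and 49.5, 64.0 and 103 FPKM in wild type. Their log2 fold changes were -0.22 and -0.20. Atp5l, at 0.62, completed the set.

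Genes that build or serve the complexes were compared by lists. In the complex II assembly list 3 of 4 genes were tested and 0 passed. Of the complex III assembly factors 5 were tested and 0 passed, and Uqcc2, which helps make cytochrome b, averaged 141 ± 48.6 FPKM in SKO and 76.3 ± 23.3 FPKM in wild type (log2 fold change 0.86, limma adjusted p = 0.523). All 5 lay above the all-row median. Of 21 complex IV assembly factors 0 passed, and Cmc2 had 1.12, 7.11 and 3.00 FPKM in SKO and 8.63, 6.18 and 26.0 FPKM in wild type, with overlap. Of 8 genes for ATP synthase assembly or inhibition 0 passed. Tmem242, an assembly factor of the c ring, averaged 8.49 ± 1.62 FPKM in SKO and 4.41 ± 0.837 FPKM in wild type without overlap (adjusted p = 0.422).

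Among 10 other complex IV and cytochrome c genes 0 passed on the deposited values. After scaling to equal protein-coding sums 2 fell, with 1.3% of all tested rows called lower. Those were Ndufa4l2, a relative of Ndufa4, and the testis form Cox7b2, which was named after its values were seen. Ndufa4l2 had 2.15, 4.08 and 4.97 FPKM in SKO, against 7.05, 10.7 and 16.2 FPKM in wild type (log2 fold change -1.36, limma adjusted p = 0.286, and adjusted p = 0.0277 on the protein-coding scale). Cox7b2 averaged 234 ± 75.6 FPKM in SKO and 437 ± 145 FPKM in wild type (adjusted p = 0.523, and 0.0116 on the protein-coding scale). Ndufa4, a complex IV subunit, had 11.9, 9.50 and 7.41 FPKM in SKO, against 2.21, 2.29 and 2.59 FPKM in wild type. The groups did not overlap, but the gene did not pass (log2 fold change 1.64, SE 0.33, adjusted p = 0.126).

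The enzymes and carriers on either side of the chain also held values on both sides. Of 18 genes listed for the citric acid cycle, which included Pcx and the pyruvate dehydrogenase genes Dlat, Pdha2 and Pdhb, 0 passed on the deposited values. Mdh2, malate dehydrogenase, averaged 15.4 ± 7.77 FPKM in SKO and 3.97 ± 1.42 FPKM in wild type (log2 fold change 1.65, limma adjusted p = 0.228). Dlat, the acetyltransferase of pyruvate dehydrogenase, averaged 17.4 ± 3.50 FPKM in SKO and 47.1 ± 17.5 FPKM in wild type (-1.34, adjusted p = 0.278), and it fell on the protein-coding scale (adjusted p = 0.0136). Of 8 carrier and exchange genes 0 passed, and the phosphate carrier Slc25a3 averaged 79.6 ± 21.0 FPKM in SKO and 40.0 ± 9.84 FPKM in wild type (adjusted p = 0.423). Of 8 regulators of mitochondrial biogenesis 0 passed, among them Tfam, which packages mitochondrial DNA, and Gabpa.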

How the data were processed

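Ribosome profiling of 3 Eif5a SKO and 3 wild-type samples was analysed from 1 table. The authors deposited FPKM for each symbol in each library, and the table holds no counts. Per the submitters' processing notes the reads were processed on mm10 with tools that included STAR, Bowtie2, Cutadapt and Cufflinks. Their roles, and the treatment of reads that map to several places, are not stated in any source used here. Of 2897 low rows 19.7% had values on whole-read steps within 2%, against 0.069% after shuffling. Most low rows did not, so counts were not recovered and depth in reads is unknown. Depth relative to SKO replicate 1, estimated from such steps, was 0.50 and 0.77 for SKO replicates 2 and 3. It was 0.79, 0.76 and 0.63 for wild-type replicates 1, 2 and 3.

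Members and gene lists were chosen with earlier results of these data known. Symbols were matched to RefSeq GRCm38.p6, 19305 by symbol and 81 by synonym. The 15578 rows that averaged 1 FPKM or more were compared on log2(FPKM + 1) with limma 3.58.1 in R 4.3.3 (eBayes with a trend, Benjamini-Hochberg over all rows), and the code was tested on simulated data. Values in every library were given for the 4 densest genes of each complex, the 2 largest and 2 smallest fold changes among genes of at least 5 FPKM, the isoform sets and genes past the test. Outside the complexes the 2 genes with the smallest p of each list could be named. Further genes were named after their values were seen. Alternatives covered pseudocount, filter, scaling, eBayes settings, rows tested, the replicate number as a block and each library left out. Leaving out a library on the protein-coding scale was added after the data were seen. Promoter windows came from RefSeq.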

Additional observations from a re-analysis of the deposited data

How the results depend on the processing

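With all libraries, 14 alternatives were run, and 6 more left out 1 library each. The count of subunit genes past the test was 0 on the deposited values and stayed 0 in each alternative except quantile normalization, with 1 (Uqcrfs1, log2 fold change -0.94), and equal protein-coding sums, with 3. On that scale it was 0 to 1 when a library was left out. The count over all rows, 20, was 4 with a pseudocount of 5, 5 with no filter, 86 with a minimum mean of 5 FPKM, 125 with TMM-type scaling (which trims extreme log ratios), 446 with quantile normalization, 517 with equal protein-coding sums, 63 with robust eBayes, 56 over protein-coding rows only and 9 with equal rows counted once. It ran from 4 to 31 with a library left out, and on the protein-coding scale it was 166, 46 and 46 without SKO replicates 1, 2 and 3 and 177, 32 and 36 without wild-type replicates 1, 2 and 3. The cause was not tested.

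Under quantile normalization the median above all rows was 0.035 for all subunit genes (0.23 as deposited), 0.088 for complex III (0.30) and 0.057 for complex IV (0.31). With a library left out, the all-subunit value ran from 0.051 without SKO replicate 2 to 0.38 without SKO replicate 1, with 0.13 without SKO replicate 3. Eif5a ran from -4.12 to -3.70 with a library left out and passed each time.

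Of 25 named genes, 14 kept their sign throughout. The other 11, none of them called, had deposited log2 fold changes between -0.43 and 0.27. Under TMM-type, quantile, all-row sum, protein-coding sum and median scaling, Atp5j had -0.14, -0.32, -0.13, -0.17 and -0.059, Uqcrb had -0.088, -0.21, -0.075, -0.11 and -0.0039, and Uqcrc2 had -0.16, -0.20, -0.15, -0.18 and -0.080. Cox7a2 had -0.076, -0.26, -0.062 and -0.10 under the first 4. Quantile normalization gave -0.18 for Cox6c and -0.10 for Cox6c2. With a library left out, the ranges were -0.19 to 0.36 for Atp5j, -0.36 to 0.032 for Atp5j2, -0.54 to 0.33 for Atp5k, -0.16 to 0.48 for Cox7a2, -0.95 to 0.0036 for Sdha, -0.36 to 0.25 for Sdhb, -0.38 to 0.13 for Sdhc, -0.092 to 0.34 for Uqcrb and -0.24 to 0.33 for Uqcrc2.

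The replicate numbers did not pair the samples: deviations of same-numbered libraries correlated at 0.09, 0.0002 and 0.02, and not every library correlated best with its own number. With the number as a block, 0 subunit genes and 5 rows passed. A planned description of protein sequence features was not run. Depth in reads is unknown, so it sets no stated limit on the sparse genes Cox7a1, Atp5g1, Atp5g2 and Sdhd.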
